A study of Homo sapiens with 18 samples.

Results

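The arrays described here came from NCI-H2347 cells kept in 50 µM pioglitazone for 12 h (3 arrays) or 48 h (3 arrays), 6 of the 18 arrays in the experiment, and were chosen by these labels alone. NCI-H2347 is an established human lung cancer line, grown as 1 line in RPMI medium with 5% fetal bovine serum. Every group was plated 24 h before its medium was changed, and the new medium carried either pioglitazone or the same vehicle, DMSO, without drug. The remaining arrays were 3 with pioglitazone for 24 h and 9 with vehicle, 3 each at 12, 24 and 48 h. The question was how drug-treated cells themselves changed between 12 and 48 h, as levels at the later time against levels at the earlier one. The vehicle cultures aged over the same hours and are set beside the results. Whether the 3 replicates of a group were grown as separate cultures is not given in the sources used here, and the p-values measure only how far these samples spread, which may be technical variation.

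Pioglitazone is a thiazolidinedione, a ligand of the nuclear receptor PPARγ, which pairs with a retinoid X receptor on DNA and switches on genes of fatty acid storage and oxidation. In lung cancer cells such ligands are also known for slowing growth. A dividing cell switches on genes of DNA replication at the start of S phase, largely through E2F factors, and genes of mitosis later, in G2, when the B-MYB and FOXM1 complexes act at CHR elements and NF-Y at CCAAT boxes in their promoters. In resting and G1 cells the DREAM complex represses many of the same genes. A cell that leaves the cycle loses transcripts of both waves.

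RNA was read as a signal intensity on Illumina BeadChips, which was background-corrected, quantile-normalised and taken to log2, so that a difference of 1 is a 2-fold change. A level below is such a log2 intensity on 1 array, and levels of different genes are not compared because probes differ. Genes were tested with limma, and a gene passed at a Benjamini-Hochberg adjusted p under 0.05 over the 11680 genes tested. The 6 arrays detected 17112 to 18444 probes each. Across genes, arrays correlated at 0.992 to 0.995 within the 12 h group, at 0.973 to 0.990 within the 48 h group and at 0.948 to 0.965 between the groups. The third array at 48 h stood apart: its undetected probes had a median raw intensity of 153, against 102 to 113 on the other 5 pioglitazone arrays and 138 to 145 on the 6 arrays at 24 h. Results are therefore given with and without it. Of the 10 epithelial markers chosen, all were detected on all 6 arrays. Of 11 leukocyte markers with a probe 5 were on none of the 6, and of 12 fibroblast and endothelial markers 8 were on none. The last list summed to an intensity between 560 and 640 at 12 h and between 971 and 1014 at 48 h. On that list 3 genes were tested. The highest log2 level went from 8.36 to 9.42 for COL1A1, from 5.28 to 5.90 for VWF and from 6.08 to 6.00 for COL1A2. What part the change in the sum had in the results was not tested. Of 24 lung lineage markers with a probe, 13 were on all 6 arrays and 9 on none.

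Between 12 and 48 h, 4433 genes passed, 2186 higher at 48 h (18.7% of genes tested) and 2247 lower (19.2%). The median over all genes was 0.01. Large falls outnumbered large rises. At least 2-fold, 258 genes rose and 466 fell, and at least 4-fold, 8 rose and 107 fell. Without the third array at 48 h, 2167 genes passed upward (18.6%) and 2488 downward (21.3%). Of the 4433 genes, 3757 passed again in the same direction, 676 were lost and 0 turned in sign.

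The vehicle cultures changed over the same hours as well, though in fewer genes: 1399 rose (12%) and 1584 fell (13.6%). Of the genes that passed with the drug, 862 rose in both treatments, 988 fell in both, 34 rose with the drug and fell with vehicle, and 36 did the reverse. The difference between the 2 time courses was itself tested. The change with pioglitazone exceeded that with vehicle in 453 genes (3.88%) and lay below it in 610 (5.22%), and 947 of these 1063 genes passed again without the third array at 48 h. Of the 4433 genes that moved with the drug, 3573 did not pass this test, which does not show that they changed alike.

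**Figure D1:**
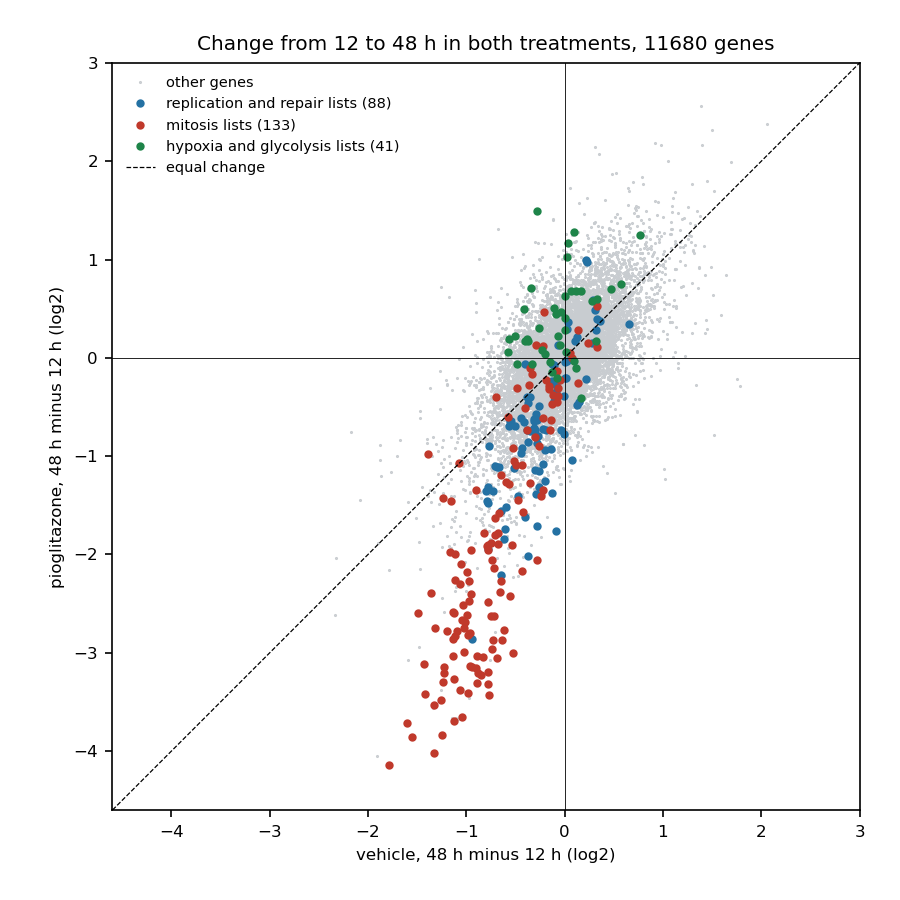
Change from 12 to 48 h in log2 units with vehicle (x axis) and with pioglitazone (y axis), 1 point per gene for 11680 genes, with 133 genes of the mitosis lists in red, 88 of the replication and repair lists in blue and 41 of the hypoxia and glycolysis lists in green. Most mitosis genes lie below the dashed line of equal change, down to -4.15 for KIF20A with the drug, and several green points lie above it.

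The deepest falls were in genes of mitosis. KIF20A, a kinesin of the central spindle that cytokinesis needs, stood at 9.59, 9.82 and 9.87 on the 12 h arrays, at 9.09, 8.94 and 9.06 at 24 h and at 5.92, 5.26 and 5.65 at 48 h. It was 17.7-fold lower at 48 h than at 12 h (log2 fold change -4.15, SE 0.14, limma adjusted p = 7.39e-13), and with vehicle the change was -1.79. The 3 later values all lay more than 3 units below the 3 earlier ones, and on 1 of the 3 arrays at 48 h the probe was not detected. The size depends on the background step: KIF20A changed by -3.43 with an offset of 50 and by -2.66 without background correction. In bulk RNA, fewer cells in mitosis and less transcript in each such cell cannot be told apart. CENPA, the histone H3 variant that marks centromeres, stood at 10.20, 10.21 and 10.23 at 12 h, at 9.10, 9.26 and 9.28 at 24 h and at 6.44, 6.39 and 6.26 at 48 h. That is a 14.4-fold fall (SE 0.10 log2, adjusted p = 4.46e-14), and its second probe gave -3.92. Within each time the 3 values lay close together, and each later time lay below the earlier ones.

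CCNB2, cyclin B2, which drives entry into mitosis, stood at 11.50, 11.47 and 11.41 at 12 h, at 10.71, 10.92 and 10.83 at 24 h and at 8.27, 7.97 and 7.70 at 48 h. It fell 11.2-fold (log2 -3.48, SE 0.12, adjusted p = 7.39e-13) against -1.26 with vehicle. The third array at 48 h was the lowest of the 3 here, and without it the change was -3.34. BUB1, a kinase of the spindle checkpoint, went from 10.30, 10.53 and 10.12 at 12 h to 6.88, 5.85 and 7.12 at 48 h, with 9.80, 9.47 and 9.75 at 24 h (13-fold lower, SE 0.23, adjusted p = 1.04e-09). Most of that fall lay after 24 h, and the second array at 48 h was the lowest.

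**Figure D2:**
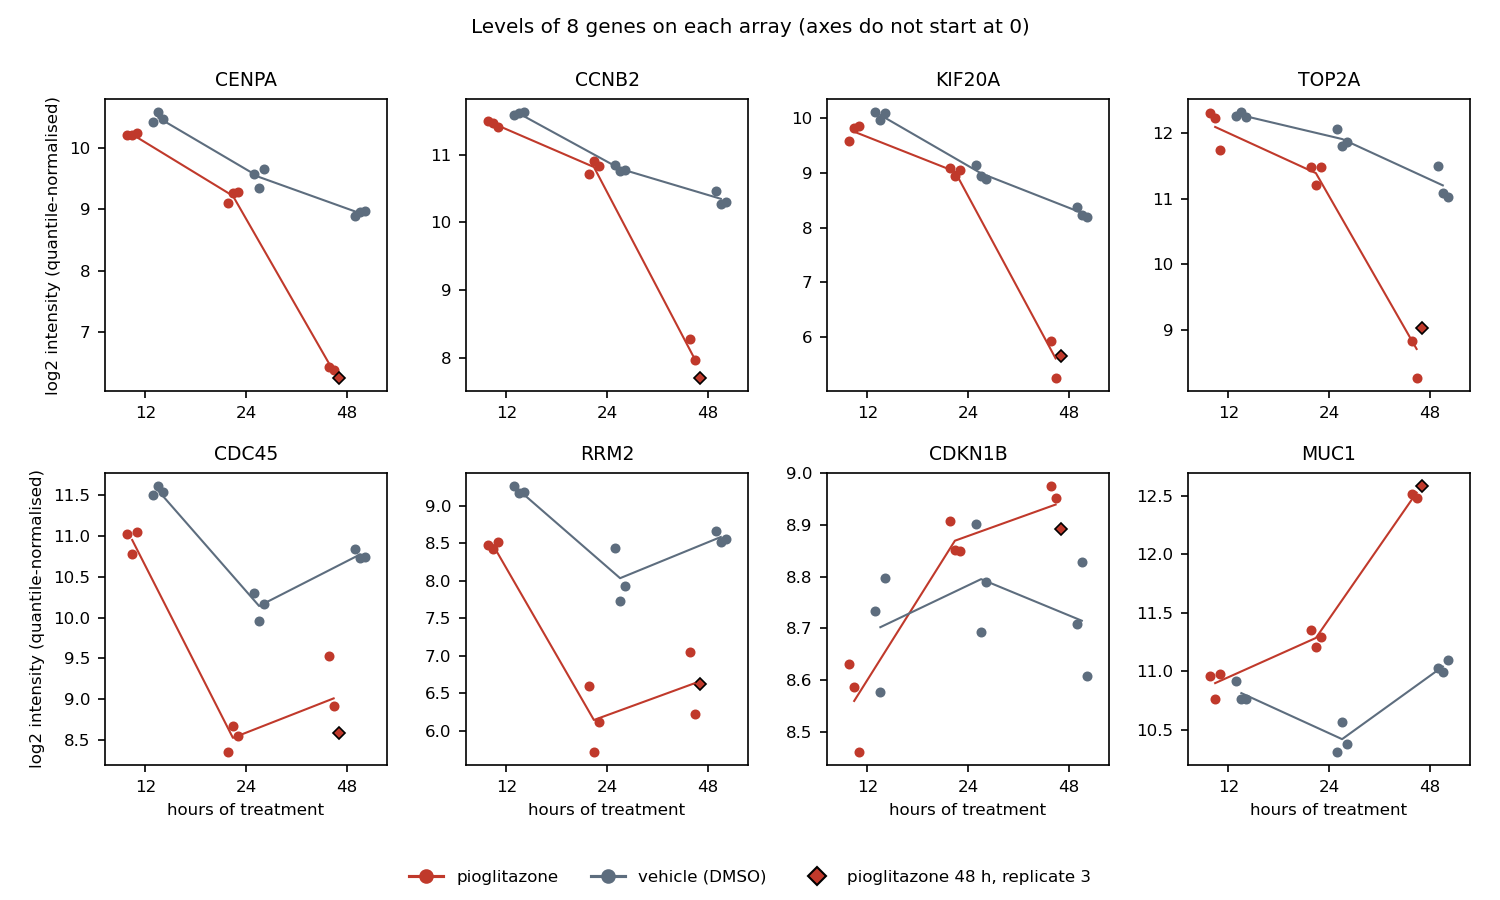
Log2 intensity of 8 genes on each array at 12, 24 and 48 h (equally spaced), with pioglitazone in red, vehicle in grey and a line through the group means; the diamond is the third pioglitazone array at 48 h. The y axes do not start at 0. CENPA, CCNB2, KIF20A and TOP2A fell mostly between 24 and 48 h with the drug, CDC45 and RRM2 were already low at 24 h, and CDKN1B and MUC1 rose.

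The list of mitotic cyclins, kinases and regulators fell almost whole: 26 of 28 tested members passed downward and 0 upward, against 19.2% of all genes downward, with a median of -2.77 beside 0.01 for all genes. With vehicle 24 of the 28 also passed downward, beside 13.6% of all genes, with a median of -0.85. The fall was deeper with the drug for 24, while 5.22% of all genes had a change below that with vehicle. NEK2, a centrosome kinase, fell 10.8-fold (log2 -3.43, SE 0.17), and CCNA2, the cyclin of S and G2 phase, 10.7-fold (-3.42, SE 0.14). Among kinesins and spindle assembly genes 25 of 29 fell and 1 rose (median -2.62; vehicle -0.83). The next deepest after KIF20A was DLGAP5, which bundles spindle microtubules, from 10.35, 10.50 and 10.01 to 6.57, 5.42 and 6.80 (16.2-fold, SE 0.25 log2), with a second probe at -3.91. Then came KIF14, a cytokinesis kinesin (14.3-fold), KIF4A, a chromosome-bound kinesin (13.1-fold), and KIF2C, which takes microtubules apart at centromeres (12.5-fold). The exception that rose was TUBB, a β-tubulin of the general cytoskeleton, at 0.53 (SE 0.11, adjusted p = 0.00094) and 0.33 with vehicle. TUBA4A, an α-tubulin outside the list, rose more, from 9.09, 9.18 and 9.32 to 11.47, 11.59 and 11.08 (4.54-fold, SE 0.12 log2).

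The kinetochore and centromere list had a median of -2.26, and -0.78 with vehicle. Beside 19.2% and 18.7% of all genes, 32 of its 37 members fell and 0 rose. Beside CENPA they included HJURP, the chaperone that places CENPA on chromatin (11.6-fold lower, SE 0.18 log2), CENPF (9.99-fold, SE 0.16) and CDCA8, borealin of the chromosomal passenger complex (9.6-fold, SE 0.15). On the log2 scale CENPA changed by -3.85 and its chaperone HJURP by -3.53. In the list of condensin, topoisomerase II and mitotic chromatin 16 of 17 fell (median -1.28; vehicle -0.90). TOP2A, the topoisomerase that untangles sister chromatids, stood at 12.30, 12.23 and 11.74 at 12 h and at 8.83, 8.27 and 9.03 at 48 h (10.4-fold, SE 0.18 log2, adjusted p = 2.02e-10). The condensin subunits NCAPG and NCAPD2 fell 6.96-fold and 5.26-fold. The list of spindle checkpoint and anaphase genes was more mixed, 19 of 25 lower and 1 higher with a median of -0.60. CDC20, the activator of the anaphase-promoting complex, went from 12.11, 12.09 and 12.25 to 9.64, 9.21 and 8.02 (9.15-fold, SE 0.25 log2), -2.73 without the third array at 48 h. UBE2C, the conjugating enzyme of that complex, fell 7.3-fold and PTTG1, securin, 7.1-fold. The member that rose was CDC16, a core subunit of the complex, at 0.29 (adjusted p = 0.0459), which did not pass without the third array (0.25, adjusted p = 0.102).

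Other genes among the 15 deepest falls were GAS2L3, which links actin and microtubules during cytokinesis (16.6-fold), CDCA3, a trigger of mitotic entry (12.7-fold), DEPDC1 (12.7-fold), PRR11 (11.8-fold) and FAM83D, which brings casein kinase 1 to the spindle (11-fold). APOBEC3B, a cytidine deaminase that edits single-stranded DNA, stood among them, from 10.96, 10.96 and 10.99 at 12 h to 7.50, 7.43 and 6.99 at 48 h (12.7-fold, SE 0.14 log2, adjusted p = 2.9e-12). With vehicle APOBEC3B changed by -1.15, so that the fall was larger with the drug (difference -2.51, adjusted p = 4.04e-07). The 48 h probes of KIF4A, DEPDC1, HJURP and CENPF were detected on 2 of 3 arrays and that of GAS2L3 on 1, and their folds rest on signals partly at background. MKI67, the proliferation marker Ki-67, had a dim probe at 5.47, 5.47 and 5.54 at 12 h that was detected on 0 arrays at 48 h, at least 1.14-fold lower. The limma adjusted p of 0.000302 is of the difference in levels, background signals included, and not of this bound.

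**Figure D3:**
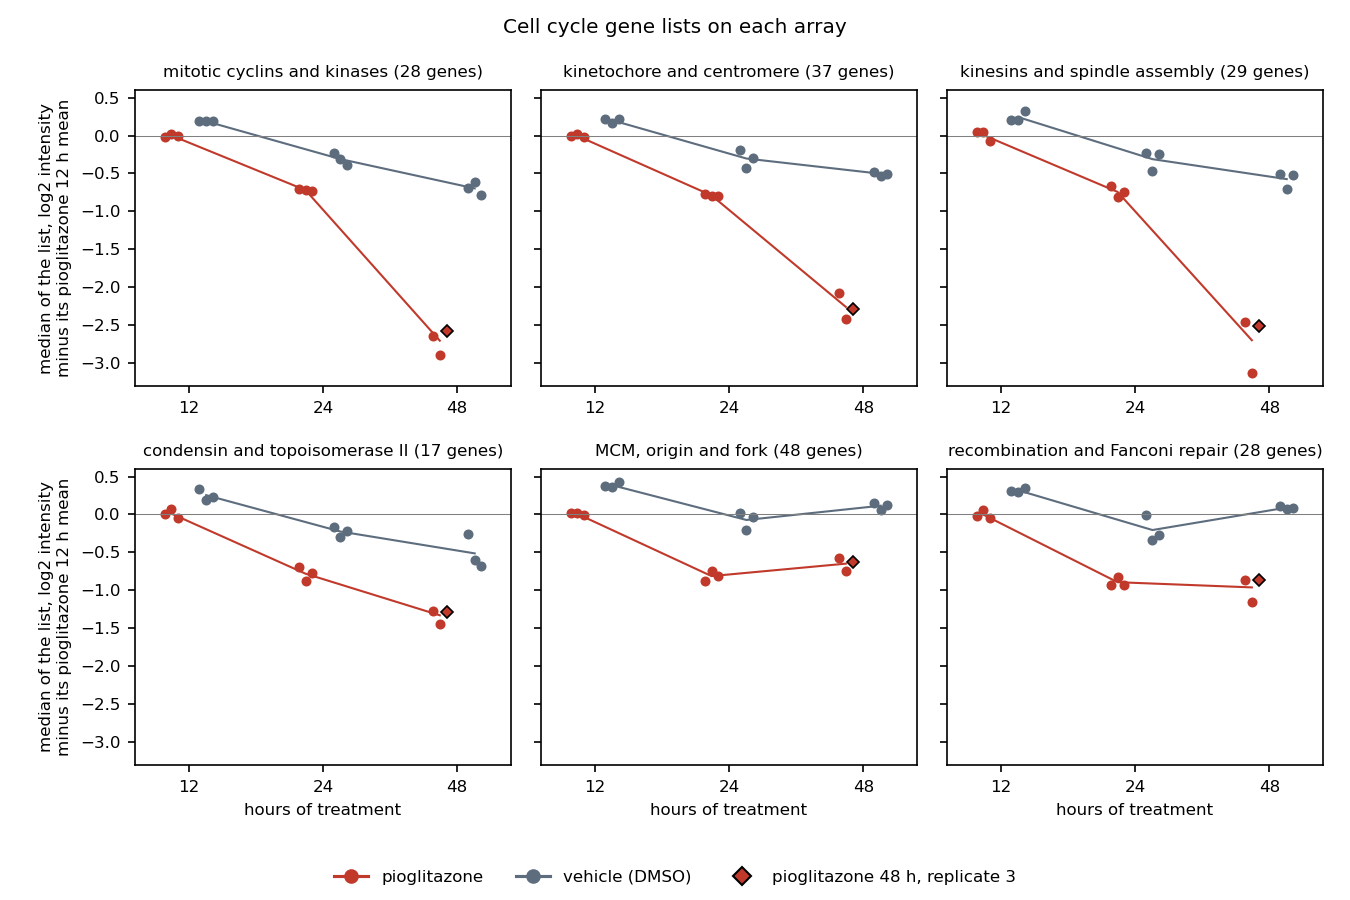
Median over each of 6 gene lists of the log2 intensity minus its mean on the pioglitazone 12 h arrays, 1 point per array, with pioglitazone in red and vehicle in grey at 12, 24 and 48 h and lines through the means of the 3 points. With the drug the median of the genes in the 3 upper lists was -0.70, -0.78 and -0.73 at 24 h and -2.77, -2.26 and -2.62 at 48 h, while the MCM and repair lists lay at -0.75 and -0.88 and then at -0.67 and -0.97. These values are medians of each gene's group mean and differ somewhat from the lines drawn.

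Promoters of these genes are shown because the genes fell together and because mitosis and replication genes are known for different promoter elements. RefSeq windows of 300 bases, from 250 before to 50 after a gene's start (GRCh38.p14), were searched on both strands for the CHR as TTTGAA or TTCGAA, for CCAAT, and for an E2F motif as TTTCCCGC, TTTCGCGC, TTTGCCGC or TTTGGCGC. No word of one motif is contained in a word of another. The windows run 5′ to 3′ on the gene's strand, and capitals mark the matches. CENPA, CCNB2, KIF4A and KIF20A stand for the mitosis genes, and CDT1 and GINS3, described further on, for the replication genes.
CENPA (chr2:26785806-26786105, plus strand): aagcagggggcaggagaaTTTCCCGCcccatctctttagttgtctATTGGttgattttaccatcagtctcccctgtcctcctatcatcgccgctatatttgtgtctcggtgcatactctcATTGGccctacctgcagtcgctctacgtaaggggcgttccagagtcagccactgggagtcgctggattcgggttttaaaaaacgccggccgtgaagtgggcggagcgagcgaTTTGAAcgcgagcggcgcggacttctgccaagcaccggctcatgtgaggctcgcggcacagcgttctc
CCNB2 (chr15:59104896-59105195, plus strand): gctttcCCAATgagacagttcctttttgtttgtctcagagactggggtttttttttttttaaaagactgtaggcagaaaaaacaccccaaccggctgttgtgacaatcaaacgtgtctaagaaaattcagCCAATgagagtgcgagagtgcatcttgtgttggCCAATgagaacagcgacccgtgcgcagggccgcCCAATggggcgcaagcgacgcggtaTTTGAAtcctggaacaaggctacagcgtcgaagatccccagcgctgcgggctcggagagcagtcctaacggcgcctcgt
KIF4A (chrX:70289854-70290153, plus strand): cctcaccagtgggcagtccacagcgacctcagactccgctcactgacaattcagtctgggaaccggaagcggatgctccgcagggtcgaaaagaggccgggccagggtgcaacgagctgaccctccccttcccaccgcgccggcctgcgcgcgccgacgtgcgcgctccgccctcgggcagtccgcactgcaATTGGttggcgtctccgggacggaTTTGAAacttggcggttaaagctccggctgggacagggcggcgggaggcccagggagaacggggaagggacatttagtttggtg
KIF20A (chr5:138178862-138179161, plus strand): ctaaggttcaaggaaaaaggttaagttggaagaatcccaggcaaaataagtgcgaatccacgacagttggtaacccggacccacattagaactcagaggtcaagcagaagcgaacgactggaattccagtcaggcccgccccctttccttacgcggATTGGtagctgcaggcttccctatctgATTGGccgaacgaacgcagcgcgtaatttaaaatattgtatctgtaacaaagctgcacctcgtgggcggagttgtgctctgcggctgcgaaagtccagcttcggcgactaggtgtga
CDT1 (chr16:88803539-88803838, plus strand): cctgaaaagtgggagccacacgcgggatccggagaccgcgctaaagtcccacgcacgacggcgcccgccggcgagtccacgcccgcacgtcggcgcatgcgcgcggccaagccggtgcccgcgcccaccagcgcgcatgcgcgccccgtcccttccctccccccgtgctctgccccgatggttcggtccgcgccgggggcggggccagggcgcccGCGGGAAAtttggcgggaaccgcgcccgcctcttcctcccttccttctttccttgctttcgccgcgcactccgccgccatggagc
GINS3 (chr16:58392221-58392520, plus strand): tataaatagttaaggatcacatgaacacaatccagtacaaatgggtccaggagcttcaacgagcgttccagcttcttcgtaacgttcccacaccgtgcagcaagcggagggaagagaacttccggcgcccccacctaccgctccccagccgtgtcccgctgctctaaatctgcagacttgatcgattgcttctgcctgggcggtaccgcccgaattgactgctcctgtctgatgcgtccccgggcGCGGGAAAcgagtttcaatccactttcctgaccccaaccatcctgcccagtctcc

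In the CCNB2 window the CHR began 29 bases before the start, with CCAAT words beginning 54, 87, 120 and 244 bases before it. KIF4A held its CHR at 34 and a reverse CCAAT at 58. CENPA held its CHR at 18, reverse CCAAT words at 130 and 205 and an E2F word at 232. KIF20A held reverse CCAAT words at 67 and 94 and no CHR word of this spelling. CDT1 and GINS3 held an E2F word at 35 and at 5 bases before the start and neither of the other motifs. Windows of other genes named here differed from these examples. TIMELESS held a CCAAT word alone, RRM1 a CHR and a CCAAT word without E2F, TYMS an E2F word alone, and KIF2C and GAS2L3 no motif. Of the 107 genes that fell at least 4-fold, 89 had a window in the table, 108 windows in all, of which 56.5% held a CHR word and 72.2% a CCAAT word. Over all 35116 windows the shares were 16.4% and 34.6%, and over the 13642 windows of genes tested 12.1% and 35.1%. Among genes of the mitosis lists that fell the shares were 55.9% and 60.6%, and 10.2% held an E2F word. Among genes of the replication and repair lists that fell, 5.33% of 75 windows held a CHR word, 49.3% a CCAAT word and 29.3% an E2F word. An E2F word stood in 3.31% of all windows and in 4.9% of those of genes tested. The CCAAT word was thus above both backgrounds in both classes, and the E2F word too. Of the 329 windows of genes that rose at least 2-fold, 11.6% held a CHR word and 21.9% a CCAAT word. These matches describe the letters and name no bound factor.

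Genes of DNA replication fell less far, and many were already low at 24 h. CDC45, part of the replicative helicase, stood at 11.03, 10.77 and 11.05 at 12 h, at 8.36, 8.67 and 8.56 at 24 h and at 9.53, 8.92 and 8.59 at 48 h (3.84-fold lower at 48 h than at 12 h, SE 0.17 log2, adjusted p = 1.42e-07). The values at 24 h lay at or below the lower part of the range at 48 h. CDT1, which loads the MCM helicase at origins, went from 8.09, 8.03 and 8.12 through 5.83, 5.52 and 5.79 to 6.94, 6.71 and 5.46. The third array at 48 h was more than 1 unit below the other two, and the change was -1.71 with it and -1.25 without it (adjusted p = 3.6e-05 and 6.69e-07). GINS3, a subunit of the same helicase as CDC45, fell 2.65-fold and TIMELESS, which protects stalled forks, 2.61-fold. Over the MCM, origin and replication fork list 34 of 48 members fell and 1 rose, beside 19.2% and 18.7% of all genes. The median was -0.67 against -0.27 with vehicle. The fall was deeper with the drug for 11, while 5.22% of all genes had a change below that with vehicle. The member that rose, ORC5, belongs to the origin recognition complex and gained 0.49 (SE 0.10, adjusted p = 0.000691).

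The order in time differed between the lists of replication and of mitosis, in both treatments. Relative to 12 h the replication list had a median of -0.75 at 24 h and -0.67 at 48 h, and 35 of its 48 members were lower at 24 h than at 48 h. The mitotic cyclins and kinases had a median of -0.70 at 24 h and -2.77 at 48 h, and 27 of 28 were lower at 48 h. For kinetochore genes 35 of 37 were lower at 48 h and for kinesins 26 of 29. With vehicle the same lists showed a like order: the replication list lay at 0.38, -0.08 and 0.10 and the mitotic list at 0.18, -0.33 and -0.73 at 12, 24 and 48 h, on the same scale. These are levels with no test, and all arrays at 24 h had the higher background of the third array at 48 h. The part of the background in this order was not tested.

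Enzymes that make deoxynucleotides divided into fallers and risers, 7 and 4 of 12, beside 19.2% and 18.7% of all genes. TK1, the thymidine kinase of S phase, fell 7.25-fold, to 8.46, 8.12 and 7.69 at 48 h (SE 0.15 log2; vehicle -0.94). RRM2 and RRM1, the subunits of ribonucleotide reductase, fell 3.57-fold and 2.87-fold, and TYMS, thymidylate synthase, 2.75-fold. RRM2, at 6.60, 5.72 and 6.12 at 24 h and 7.06, 6.23 and 6.62 at 48 h, was likewise no lower at 48 h than at 24 h on average. Its list split evenly, with 6 of 12 genes lower at 24 h than at 48 h and 6 lower at 48 h. CTPS2, a CTP synthase, rose from 7.94, 7.90 and 7.92 to 8.86, 8.77 and 9.06 (1.97-fold, SE 0.10 log2), with 0.22 with vehicle. Probes of DUT, the dUTPase, disagreed, at 0.99 for the brightest and -1.19 and -1.16 for the others, and its direction is uncertain. Genes of recombination and Fanconi repair fell with the replication genes, 21 of 28 (median -0.97; vehicle -0.28). FANCI, a core of the Fanconi pathway, fell 3.4-fold (SE 0.17 log2) against a vehicle change of -0.09. Of the 28 repair genes 14 were lower at 24 h than at 48 h and 14 lower at 48 h.

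Among regulators of the G1 to S transition 14 of 34 fell and 3 rose, beside 19.2% and 18.7% of all genes. CKS1B, a cofactor in degrading the inhibitor p27, stood at 12.85, 13.10 and 12.96 at 12 h and at 10.87, 10.99 and 10.71 at 48 h (4.33-fold lower, SE 0.11 log2), and CDK2 fell 1.95-fold. Of the inhibitors of cyclin-dependent kinases, CDKN1B, which encodes p27 itself, rose from 8.63, 8.59 and 8.46 to 8.97, 8.95 and 8.89 (0.38, SE 0.10, adjusted p = 0.0049), with 0.01 for vehicle. The groups did not overlap, as in most genes that passed, and its second probe gave 0.62. CDKN1C, p57, rose by 0.45 (SE 0.13). CDKN2D, an INK4 inhibitor, fell by 1.37, and CDKN1A, p21, stood at 13.39, 13.19 and 13.42 and at 13.14, 13.16 and 12.77 (-0.31, adjusted p = 0.0339). Without the third array at 48 h CDKN1A did not pass (-0.19, adjusted p = 0.135). CCND1, cyclin D1, stood at 12.90, 12.72 and 12.93 and 13.13, 12.95 and 12.93 and did not pass (0.15, adjusted p = 0.218). Of 17 canonical histone genes 6 rose and 4 fell. H4C3 fell by 1.92 and H4C8 rose by 1.18, and such near-identical genes may share probe signal.

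The rises were smaller and of mixed function. IDUA, the lysosomal iduronidase, stood at 6.39, 6.28 and 6.32 at 12 h and at 8.67, 8.25 and 9.75 at 48 h (5.89-fold, SE 0.26 log2, adjusted p = 8.76e-07). The third array at 48 h was the highest, and without it the change was 2.13 instead of 2.56. ANKRD29 rose 5.2-fold, and SLC39A11, a zinc transporter, went from 7.68, 7.87 and 7.47 to 9.78, 9.80 and 10.38 (4.99-fold). These rises were large with vehicle too, 1.39 for IDUA and 2.06 for ANKRD29. ALDH3B1, an aldehyde dehydrogenase, and RNF170, a ubiquitin ligase of the endoplasmic reticulum, rose 4.5-fold and 4.49-fold, and MAP1LC3A, an LC3 protein of autophagosomes, 3.99-fold, with 1.69 for vehicle. CSAD, of taurine synthesis, rose 4-fold with all arrays (log2 1.62 without the third at 48 h). LIMCH1, which activates non-muscle myosin, behaved otherwise: it stood at 6.92, 6.90 and 6.53 at 12 h, at 7.89, 7.95 and 7.97 at 24 h and at 8.99, 8.72 and 9.08 at 48 h (4.42-fold, SE 0.13 log2), while vehicle changed by 0.31 (difference 1.84, adjusted p = 5.71e-06). NEBL, an actin-binding nebulette, likewise gained 2.07 against 0.35 with vehicle, although its dimmer probe gave 0.63. SYT17, PHLDB2 and ELFN2 rose 3.59-fold, 3.49-fold and 3.46-fold. VGLL3, a TEAD cofactor, stood at 4.99, 5.21 and 5.01 at 12 h, when 1 array detected it, and at 6.63, 6.86 and 7.32 at 48 h (1.87; vehicle 0.48). CGB5, a chorionic gonadotropin β subunit with near-identical relatives, was detected on 0 arrays at 12 h and 3 at 48 h, at least 3.03-fold higher (adjusted p of the level difference = 3.27e-07).

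Among CEACAM, S100 and mucin genes, many of them made by glandular epithelium, 5 of 15 rose and 5 fell. Over all genes tested the shares were 18.7% up and 19.2% down. The falls included AGR2, which folds mucins (-0.80; vehicle 0.03), S100A4 (-0.61; vehicle -1.47) and S100A3 (-0.93, detected on 2 arrays at 48 h), as well as MUC4, which only 1 of the 6 arrays detected. MUC1, a membrane mucin, stood at 10.96, 10.76 and 10.97 at 12 h, at 11.35, 11.21 and 11.29 at 24 h and at 12.51, 12.48 and 12.58 at 48 h (3.09-fold, SE 0.10 log2, adjusted p = 8.87e-10). With vehicle it moved by 0.23 (difference 1.40, adjusted p = 3.91e-06), and its other 2 probes rose more, by 2.25 and 2.38. NKX2-1, the master factor of lung identity, went from 8.98, 8.92 and 9.19 to 10.23, 10.02 and 10.12 (2.14-fold, SE 0.10 log2) against 0.11 with vehicle (difference 0.98, adjusted p = 0.000194). All 3 values at 48 h were above all 3 at 12 h, and most genes that passed had such a gap. The lung lineage list as a whole had no common direction, 6 of 15 up and 4 down with a median of -0.13, which was 0.10 without the third array at 48 h. SFTPD, surfactant protein D, went from 5.40, 5.07 and 5.20 to 7.11, 7.16 and 6.45, detected on 1 array at 12 h (1.69, SE 0.20; vehicle 1.12), and ABCA3, the lipid pump of surfactant, rose by 1.01 (vehicle 0.99). NAPSA, the protease that processes surfactant protein B, fell from 10.35, 10.28 and 10.87 to 9.26, 9.17 and 8.96 (-1.37; vehicle -1.24), and FOXA2, a foregut factor, changed by -0.85 (vehicle -0.15).

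Of 8 epithelial keratins 3 rose and 1 fell, beside 18.7% and 19.2% of all genes. KRT7 rose most, at 1.06 (vehicle 0.90). Without the third array at 48 h 4 keratins passed upward and 0 downward. Among tight junction and desmosome genes 8 of 23 rose and 3 fell, and PPL, periplakin, stood at 7.80, 7.89 and 7.95 at 12 h and 8.91, 8.88 and 9.15 at 48 h (2.14-fold, SE 0.10 log2). CLDN18, a lung claudin, changed by -0.74 with the drug and by -0.74 with vehicle. Of the genes of the epithelial-mesenchymal transition 3 of 14 rose and 2 fell: CDH2, N-cadherin, gained 0.96 (SE 0.10), while FN1, fibronectin, dropped from 6.88, 6.76 and 6.77 to 4.95, 5.41 and 5.02, detected on 1 array at 48 h (-1.67, SE 0.18). COL1A1, a collagen on the fibroblast list, rose from 8.06, 7.99 and 8.36 to 9.38, 9.42 and 9.39 (1.26, SE 0.13; vehicle 0.01). The epithelial markers summed to 38540 to 40749 intensity units at 12 h and 45995 to 53425 at 48 h.

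Notch genes went both ways, with 4 of 23 up and 8 down, beside 18.7% and 19.2% of all genes. LFNG, lunatic fringe, which modifies Notch receptors, rose from 6.80, 6.77 and 6.77 to 8.65, 8.56 and 8.44 (3.41-fold, SE 0.11 log2; vehicle 0.79), and NOTCH3 rose by 0.96 (SE 0.10). NOTCH1 fell from 9.30, 8.93 and 9.31 to 8.06, 8.08 and 7.40 (-1.34, SE 0.20), -1.11 without the third array at 48 h, with -0.31 for vehicle. The Notch target HEYL fell by 0.91, and HEY2 went from all 3 arrays detected to 0, at least 1.59-fold lower (adjusted p of the level difference = 1.49e-06).

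Of 21 genes known to rise in low oxygen 12 rose with time in the drug, 0 fell and 9 did not pass, beside 18.7% of all genes that rose, with a median of 0.51 (0.44 without the third array at 48 h). With vehicle 3 rose and 4 fell, beside 12% and 13.6% of all genes. The change with the drug exceeded that with vehicle for 9, beside 3.88% of all genes. ADM, adrenomedullin, stood at 7.99, 8.02 and 8.29 at 12 h, at 8.88, 8.88 and 8.84 at 24 h and at 9.10, 9.38 and 9.32 at 48 h (2.24-fold, SE 0.13 log2, adjusted p = 1.35e-06; vehicle 0.04). BNIP3L, a receptor for clearing mitochondria, rose 2.42-fold (vehicle 0.09), and P4HA1, a collagen prolyl hydroxylase, 2.04-fold (vehicle 0.03). In each of these 3 genes every value at 48 h was above every value at 12 h. The groups were likewise apart in 4025 of the 4433 genes that passed. The glycolysis list moved less, 8 of 22 up and 1 down with a median of 0.19, against 1 and 4 with vehicle. ENO2, an enolase, went from 8.39, 8.70 and 8.51 to 9.93, 9.70 and 10.46 (2.82-fold, SE 0.15 log2; vehicle -0.28, adjusted p of the difference = 4.27e-05), and ALDOA, aldolase A, gained 0.72 against -0.35. PFKM, the muscle phosphofructokinase, was the member that fell, by 0.41.

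The drug's receptor and the classic targets chosen by name did not pass between 12 and 48 h. PPARG stood at 10.95, 11.04 and 10.93 at 12 h and 11.12, 11.03 and 10.89 at 48 h (0.04, SE 0.10, adjusted p = 0.752), and its partner RXRA at 9.55, 9.57 and 9.68 and 9.43, 9.55 and 9.49 (-0.11, adjusted p = 0.324). PDK4, a pyruvate dehydrogenase kinase and classic target, stood at 8.41, 8.71 and 8.17 and 8.48, 7.83 and 9.06 (0.03, SE 0.21, adjusted p = 0.933), and its sign turned without the third array at 48 h (-0.27, adjusted p = 0.236). PLIN2, a lipid droplet coat protein, was at 12.34, 12.27 and 12.31 and 12.52, 12.33 and 12.33 (0.09, adjusted p = 0.537), and CPT1A, which brings fatty acids into mitochondria, differed by -0.09 (adjusted p = 0.559). FABP4, the fatty acid carrier of fat cells, had no probe that passed the detection filter. Probes of ANGPTL4, a lipase inhibitor, disagreed: 0.46 (adjusted p = 0.138) for the brighter, 0.67 (adjusted p = 0.0404) without the third array at 48 h, and -0.68 for the other. Of 29 PPAR targets tested 3 rose and 4 fell, beside 18.7% and 19.2% of all genes, with a median of 0.07. Without the third array at 48 h 5 rose and 4 fell, and the median turned to -0.03. Those that rose with all arrays were TXNIP, FABP3 and ACAA1. TXNIP, an inhibitor of thioredoxin, went from 10.32, 10.24 and 10.35 to 11.96, 12.18 and 11.88 and as much with vehicle (1.70 and 1.52). FABP3, a fatty acid carrier, was detected on 0 arrays at 12 h (at least 1.58-fold higher, adjusted p of the level difference = 4.99e-05). ACAA1, a peroxisomal thiolase, gained 0.34 (SE 0.12).

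**Figure D4:**
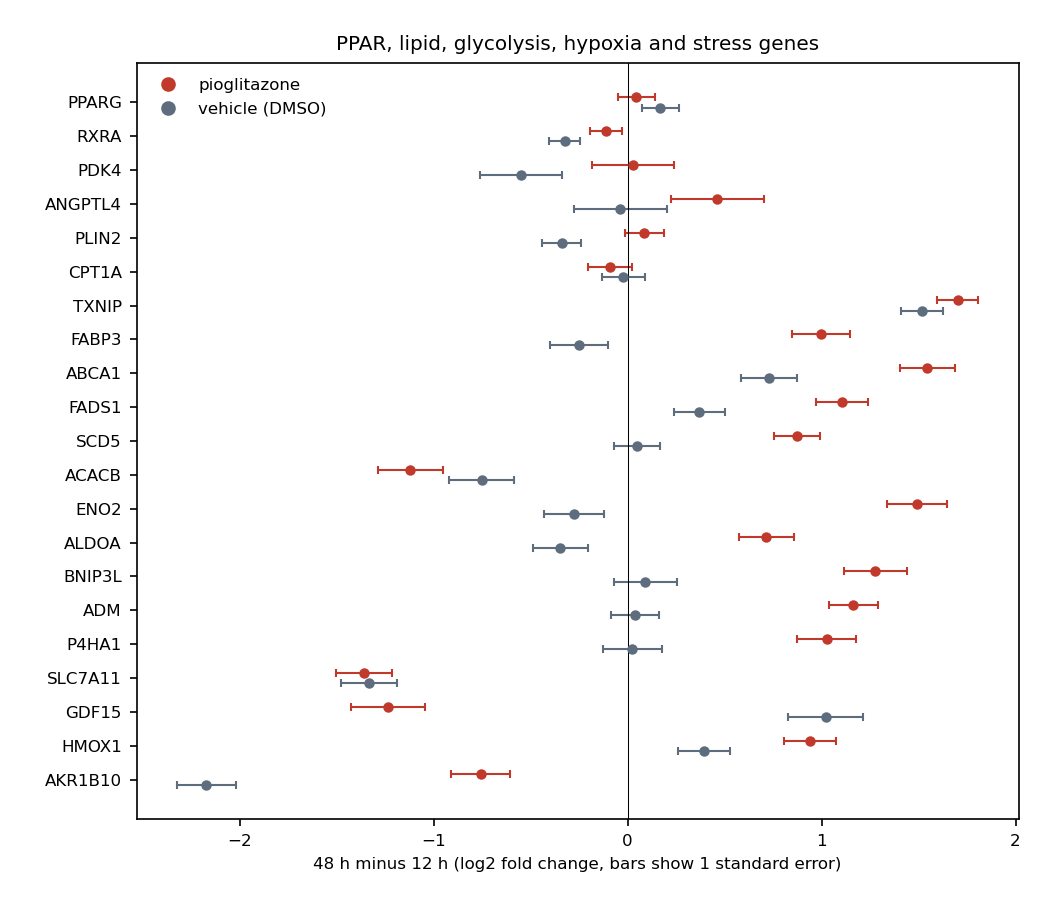
Log2 fold change from 12 to 48 h of 21 genes with pioglitazone (red) and vehicle (grey), with bars of 1 standard error from the limma fit. PPARG, RXRA and CPT1A lie near 0 with the drug, ENO2, BNIP3L, ADM and P4HA1 lie above 1 with the drug and near 0 or below with vehicle, and GDF15 moves in opposite directions.

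Of 18 genes of fatty acid synthesis and desaturation 10 rose and 2 fell, beside 18.7% and 19.2% of all genes. The list had a median of 0.38 against 0.13 with vehicle. FADS1, the delta-5 desaturase, went from 9.29, 9.59 and 9.22 to 10.30, 10.38 and 10.74 (2.15-fold, SE 0.13 log2), and SCD5, a stearoyl-CoA desaturase, gained 0.87, although its second probe gave 0.16. ACACB, the acetyl-CoA carboxylase of mitochondria, fell from 6.69, 6.21 and 6.68 to 5.63, 5.14 and 5.46 (-1.12, SE 0.17). ACACB was detected on 2 arrays at 48 h, and its change was -0.72 with an offset of 50 and -0.42 without background correction. Of 18 genes of cholesterol synthesis 5 rose and 0 fell. ABCA1, the cholesterol exporter, rose from 9.37, 9.48 and 9.47 to 10.87, 11.21 and 10.88 (2.92-fold, SE 0.14 log2; vehicle 0.73) and was already at 11.08, 10.74 and 10.95 at 24 h. Peroxisomal oxidation had 6 genes up and 3 down of 17 (median 0.11), and 6 up and 6 down (median 0.26) without the third array at 48 h. Among them were PHYH, phytanoyl-CoA hydroxylase, at 1.08 and ACOX2, the branched-chain acyl-CoA oxidase, at -1.22 (vehicle -1.23). Mitochondrial oxidation had 2 up and 2 down of 22, again beside 18.7% and 19.2% of all genes.

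Of 36 ATF4 targets, genes of amino acid supply and the integrated stress response, 17 fell and 0 rose (median -0.24). With vehicle 8 rose and 4 fell, beside 12% and 13.6% of all genes. SLC7A5, a leucine transporter, stood at 12.73, 12.56 and 12.81 at 12 h and 11.97, 11.81 and 11.28 at 48 h (-1.02, SE 0.14; vehicle -0.11), and PPP1R15A, which restores translation after stress, fell by 0.89 against 0.20 with vehicle. SLC7A11, the cystine importer, fell alike in both treatments (-1.36 and -1.33). Of 22 chaperones of the endoplasmic reticulum 6 fell and 0 rose, beside 19.2% and 18.7% of all genes. Those that fell included HSP90B1, at 13.37, 13.29 and 13.31 and then 12.86, 12.68 and 12.61 (-0.61), and DNAJC3 (-1.22, SE 0.13). NRF2 targets, the antioxidant response, gave 3 up and 5 down of 25, with HMOX1, heme oxygenase, at 0.94 and SRXN1, sulfiredoxin, at -0.86. With vehicle 12 of the 25 fell, beside 13.6% of all genes. The drug change lay above the vehicle change in 3.88% of all genes and, over this whole list, for 6 members. One of these was AKR1B10, an aldo-keto reductase, from 7.76, 8.11 and 7.65 to 7.04, 7.02 and 7.19 (-0.76) against -2.17 with vehicle.

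Of 28 p53 targets 5 rose and 8 fell, beside 18.7% and 19.2% of all genes. They included MDM2, the p53 ligase, at -1.37 (vehicle -0.71), TIGAR, a fructose bisphosphatase, at -0.78, and TP53I3, a quinone oxidoreductase, at 1.11. Of 39 interferon-stimulated genes 15 fell and 6 rose: HERC5, the ISG15 ligase, went from 10.16, 10.02 and 9.97 to 8.70, 8.55 and 8.47 (-1.48, SE 0.10; vehicle -0.81) and OAS3 fell by 1.20 (1.46 without the third array at 48 h, where it was highest). Of 26 NF-kB and cytokine genes 6 rose and 6 fell, again beside 18.7% and 19.2% of all genes. IL6 was detected on all arrays at 12 h and on 0 at 48 h, at least 1.66-fold lower, PTGS2, cyclooxygenase 2, fell by 1.00, and CFB, complement factor B, rose from 6.49, 6.64 and 6.15 to 7.82, 7.60 and 7.55 (1.23, SE 0.13). Of 29 proteasome subunits 8 fell and 1 rose (median -0.22), and with vehicle 13 fell, beside 13.6% of all genes with vehicle.

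Some genes passed in opposite directions in the 2 treatments. CEACAM6, a cell surface adhesion molecule, stood at 8.27, 8.13 and 7.99 at 12 h and 8.77, 8.46 and 9.32 at 48 h with the drug (0.72, 0.49 without the third array at 48 h) and fell by 1.26 with vehicle (difference 1.98, SE 0.22, adjusted p = 1.66e-05). GBP2, an interferon-induced GTPase, rose by 0.62 and fell by 1.17 with vehicle. ERP27, a chaperone-like protein of the endoplasmic reticulum, rose from 5.43, 5.32 and 5.54 to 6.57, 6.70 and 6.95 with the drug (1.31) and changed by -0.68 with vehicle, and SDCBP2, syntenin-2, by 1.00 and -0.87. In all 4 genes every drug-treated array at 48 h was above every one at 12 h. Most genes that passed had such a gap. In the other direction, GDF15, a stress cytokine, fell from 8.48, 8.61 and 8.83 to 7.29, 7.84 and 7.07 with the drug (-1.24, SE 0.19) and rose by 1.02 with vehicle (difference -2.26, adjusted p = 3.42e-05). IL1RL1, the interleukin-33 receptor, changed by -0.78 and 1.52, INHBE, an activin subunit, by -1.13 and 1.01, and SEMA3A, a guidance cue, by -1.38 and 0.51. The others named by the same rule were OLFML2A, AMPD3, an AMP deaminase, and ZFP42, a pluripotency factor, with 0.69, 0.56 and -0.89 with the drug and -0.91, -0.90 and 0.80 with vehicle. Some of these sizes depend on the background step. Without background correction the change with the drug was 0.52 for ERP27, -0.52 for INHBE, -0.36 for ZFP42 and 0.18 for AMPD3. DYSF, the membrane repair protein dysferlin, rose with the drug (1.72) beside 0.06 with vehicle.

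Leaving out the third array at 48 h changed the counts of the cell cycle lists little and those of several other lists by more. With all arrays and without it the median of the mitotic cyclins and kinases was -2.77 and -2.79, of the kinetochore list -2.26 and -2.18, of the replication list -0.67 and -0.64, of fatty acid synthesis 0.38 and 0.38 and of glycolysis 0.19 and 0.18. Without it 27 of 28 mitotic cyclins and kinases, 32 of 37 kinetochore genes, 24 of 29 kinesin and spindle genes, 32 of 48 replication genes and 21 of 28 repair genes passed downward. Over all genes 21.3% passed downward without it and 18.6% upward. Upward, 14 of 21 hypoxia genes, 9 of 22 glycolysis genes and 9 of 18 fatty acid synthesis genes passed. Of the ATF4 targets 18 fell. The counts up and down went from 6 and 6 to 4 and 8 for NF-kB genes, from 5 and 0 to 4 and 1 for cholesterol synthesis and from 1 and 8 to 2 and 11 for the proteasome. The interferon list had a median of -0.31 with it and -0.16 without it, with 9 genes up and 14 down. Of the 676 genes lost without it 412 had passed upward and 264 downward, and 898 genes passed without it that had not passed with it.

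**Figure D5:**
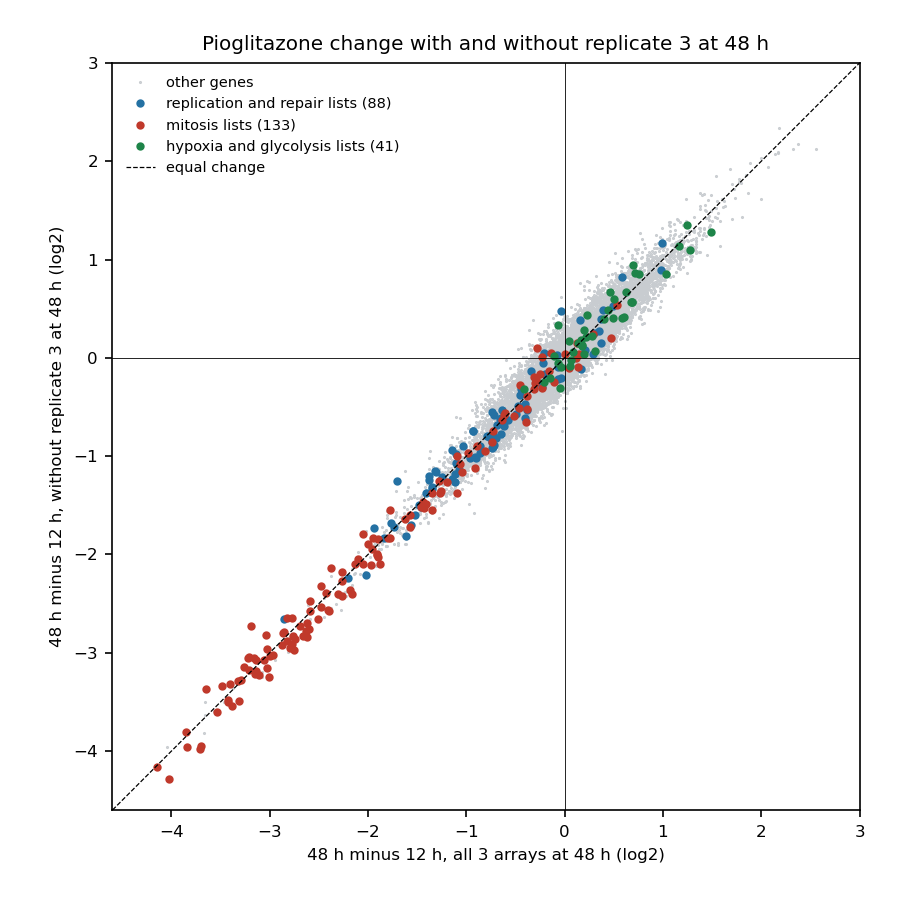
Log2 fold change of pioglitazone 48 h against 12 h with all arrays (x axis) and without the third array at 48 h (y axis), 1 point per gene for 11680 genes, with mitosis lists in red, replication and repair lists in blue and hypoxia and glycolysis lists in green. Mitosis genes lie near the dashed line of equal change over their whole range, and 3757 of 4433 genes passed in both fits.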

How the data were processed

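The authors deposited 2 tables: raw probe intensities with a detection p-value per probe and array, exported from GenomeStudio per the submitters' processing notes (version not given in the sources used here), and a processed table of the same arrays, used as an alternative. Detection p-values, as deposited, moved in steps of 1 in 770. Raw intensities of all 18 arrays were corrected by normexp, with negative control levels read back out of the detection p-values and 16 units added, then quantile-normalised and taken to log2 (limma 3.58.1, R 4.3.3). Of 47323 probes, 30113 had 1 gene symbol, 8 several and 17202 none. The 20032 probes with a detection p under 0.01 on at least 3 arrays were kept, 4354 of them unnamed. Where a gene had several kept probes, as 3161 of the 11680 genes did, the brightest on average stood for it. Symbols were checked against RefSeq, where 39 had no match.

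The fit had 6 group means and 12 residual degrees of freedom, with Benjamini-Hochberg adjustment over all genes. It was also run on simulated data with independent noise and few changed genes. That setting differs from these data and cannot show how the fit performs on them. Only 3 arrays per group limit the precision; the median standard error was 0.15 log2. Levels of genes undetected on all arrays of a group give "at least" folds, against the lowest detected signal per array or the probe's own where higher. An adjusted p beside such a fold is of the limma difference in levels and not of the bound. The replicate number was not used as a pairing in the main fit. Deviations of same-numbered arrays at 12 and 48 h correlated at 0.04, -0.22 and -0.29 across genes. Those of differently numbered arrays correlated at -0.15 to 0.29. Deviations from a mean of 3 arrays sum to 0, so these values cannot show whether samples were paired. Genes were named by rule: the 15 highest and 15 lowest changes past the threshold in both fits without overlap, up to 4 members per list and direction, the 8 highest and 8 lowest differences from vehicle, up to 6 genes each way with opposite changes, and 10 genes chosen by name, leaving out members of lists that added nothing. The genes, lists and comparisons were chosen with earlier results of these data known. Promoter sequences are from RefSeq (GRCh38.p14). Alternatives changed the arrays used, the background, offset, normalization, filter, weights, probe choice and replicate block.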

Additional observations from a re-analysis of the deposited data

Results flagged for a closer look

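Of 143 genes named here, 95 differed between the pioglitazone and the vehicle time courses in a test of the difference itself (limma, adjusted p under 0.05), 40 with a higher change with the drug and 55 with a lower one. The values are the pioglitazone change from 12 to 48 h minus the vehicle change, in log2 units. Over all 11680 genes, tested together, the shares were 3.88% higher and 5.22% lower. The named genes were partly chosen for this difference or for large changes, which raises their count.

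Genes of mitosis had the most negative values. Among kinesins and spindle genes they were -2.69 for DLGAP5, -2.60 for KIF2C, -2.59 for KIF14, -2.36 for KIF20A, -2.11 for KIF4A and -2.49 for FAM83D. The mitotic kinases, cyclins and their regulators gave -2.66 for NEK2, -2.57 for BUB1, -2.22 for CCNB2, -1.999 for CCNA2, -2.56 for CDCA3 and -2.59 for DEPDC1. Centromere genes gave -2.54 for CENPF, -2.30 for CENPA, -2.20 for HJURP and -2.14 for CDCA8. Anaphase genes gave -2.41 for CDC20, -2.14 for UBE2C and -1.71 for PTTG1, and chromosome condensation genes -2.31 for TOP2A, -1.84 for NCAPG and -1.04 for NCAPD2. Of the remaining genes among the deepest falls, the values were -2.14 for GAS2L3, -2.23 for PRR11 and -2.51 for APOBEC3B.

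Replication, nucleotide and repair genes and CKS1B, of the G1 to S transition, followed with mostly smaller differences. They were -1.91 for TK1, -1.67 for FANCI, -1.50 for CKS1B, -1.43 for CDT1, -1.22 for RRM2, -1.16 for CDC45, -1.09 for TIMELESS, -0.93 for GINS3, -0.92 for RRM1 and -0.67 for TYMS. CTPS2 (0.75) and the histone gene H4C8 (1.09) lay on the other side.

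Genes of signalling, stress and other functions whose change with the drug lay below that with vehicle were IL1RL1 (-2.30), GDF15 (-2.26), INHBE (-2.14), SEMA3A (-1.89), ZFP42 (-1.69), HEY2 (-1.60), PPP1R15A (-1.09), DNAJC3 (-0.91), SLC7A5 (-0.91), HERC5 (-0.66), TIGAR (-0.65), PTGS2 (-0.58), HEYL (-0.56), AGR2 (-0.83), FOXA2 (-0.70) and PFKM (-0.57). NOTCH1 (-1.03) and FN1 (-0.83) had negative differences too, but without the third array at 48 h their adjusted p was 0.0548 and 0.0754.

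On the higher side, ERP27 had 1.99, CEACAM6 1.98, SDCBP2 1.88, GBP2 1.80, OLFML2A 1.59, AMPD3 1.46, MUC1 1.40, NKX2-1 0.98, LFNG 0.98, NOTCH3 0.58, COL1A1 1.25, CDH2 0.54, S100A4 0.86 and TP53I3 0.69. Metabolic and hypoxia-induced genes on that side were ENO2 (1.77), AKR1B10 (1.41), FABP3 (1.25), BNIP3L (1.19), ADM (1.13), ALDOA (1.06), P4HA1 (1.00), SCD5 (0.82), ABCA1 (0.82), FADS1 (0.73) and PHYH (0.65). Among the highest rises the difference was 1.84 for LIMCH1, 1.73 for NEBL, 1.67 for DYSF, 1.39 for VGLL3, 1.36 for CGB5, 1.26 for TUBA4A, 1.19 for ALDH3B1, 1.10 for ELFN2, 1.05 for SYT17 and 0.82 for SLC39A11. For RNF170 it was 0.77, with an adjusted p of 0.0753 without the third array at 48 h. The probes of CGB5 and FABP3 were on 0 pioglitazone arrays at 12 h, and those of HEY2 on 0 at 48 h, which leaves these 3 differences without a measured level in 1 group. Of the genes in the other observations the difference was 0.88 for YPEL5, 0.79 for HBEGF, -0.73 for CRY1 and -1.24 for CCN2.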

How the results depend on the processing

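The count of genes that passed with pioglitazone was 4433, and 2666 with the 6 arrays fitted alone, where the spread rests on fewer arrays, and 6699 of 20032 when every kept probe was tested. The difference between treatments passed for 1063 genes, for 699 with only the 12 arrays at 12 and 48 h normalised and fitted, and for 1697 with array weights, whose estimation did not fully converge. The cause was not tested. With the replicate block 4345 genes passed with pioglitazone, and the block moved no count by over 1.5 times. Leaving out each array in turn gave 3627 to 4655 for pioglitazone, 763 to 1295 for the difference and, for vehicle arrays left out as a choice made after seeing the data, 2099 to 2526 for vehicle. Median centring put 55.6% of calls upward against 49.3%. Among named genes over all alternatives 4722 values kept direction and call, 299 lost the call, 3 gained it and 6 reversed. CPT1A reversed to 0.00043 with array weights. PDK4 reversed to -0.27 with 17 arrays normalised again and -0.073 with array weights, and ranged from -0.27 to 0.34 over arrays left out. PPARG ranged from -0.0099 to 0.11 in the same way. The median of PPAR targets ranged from -0.029 to 0.099 and that of lung lineage from -0.24 to 0.10. With 17 arrays they were -0.028 and 0.097, and lung lineage was 0.076 with array weights. The glutathione list reversed to 0.027 with median centring. CPT1A, PDK4 and PPARG did not pass with all arrays. Of 136 named genes that passed, the log2 change was over 1.5 times smaller for 47 without background correction and for 14 with an offset of 50, and 0 turned in sign. Dim probes near background limit the folds of KIF4A, DEPDC1, GAS2L3, ACACB and MKI67, and counts of arrays that detected them stand in the report. The list is not complete: the changes of ERP27, INHBE, ZFP42 and AMPD3 also shrank without background correction.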

Other observations

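Several gene groups not described above had members in both directions. The shares of all genes were 18.7% up and 19.2% down. Of 23 FOXO and quiescence genes 8 rose and 3 fell (median 0.14; 0.02 without the third array at 48 h). YPEL5 rose by 1.33 and PIK3IP1, an inhibitor of PI3 kinase, by 0.86, while SESN3, a sestrin that restrains mTORC1, changed by -1.14. Of 14 clock genes 4 rose and 1 fell, and without the third array at 48 h 2 rose and 3 fell. CRY1, a repressor of the clock, stood at 8.51, 8.40 and 8.10 at 12 h and 6.65, 6.41 and 7.05 at 48 h (-1.63; vehicle -0.90), and NR1D2, another repressor, gained 0.87 (vehicle 0.76).

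Of 30 MAPK feedback and immediate early genes 5 rose and 10 fell, with FOS at -0.83 and HBEGF, a ligand of the EGF receptor, at 0.81. Of 23 YAP targets 4 rose and 5 fell, with IGFBP3 at 0.82 and CCN2 at -0.96. Of 65 cytosolic ribosomal proteins 11 rose and 4 fell with a median of 0.01, and of 53 genes of the respiratory chain 3 rose and 8 fell with a median of -0.06. The shares in the ribosomal and respiratory lists lie below the 18.7% and 19.2% of all genes that rose and fell.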
